A study of Mus musculus with 18 samples.

Results

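The AP-1 family was followed through its FOS, JUN and BATF genes, taken by symbol from the deposited table of normalized counts: *Fos*, *Fosb*, *Fosl1*, *Fosl2*, *Jun*, *Junb*, *Jund*, *Batf* and *Batf3*, 9 of 37236 genes. AP-1 proteins are basic leucine zipper transcription factors that bind DNA in pairs, JUN proteins with each other or with a FOS or BATF partner. Several of their genes are immediate-early genes, transcribed within minutes of T-cell receptor or cytokine signals and quickly silent again, whereas BATF pairs with JUN proteins and cooperates with IRF factors in activated and exhausted T cells. In T cells AP-1 acts with NFAT at genes such as *Il2* and *Ifng*, and NR2F6 is known as a nuclear receptor that represses such genes.

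RNA was sequenced from CD3+ tumor-infiltrating lymphocytes (TILs) of B16-OVA tumors, a mouse melanoma line that expresses ovalbumin, at d14 after injection of 500000 cells. The 4 groups joined 2 genotypes, *Nr2f6*+/+ and *Nr2f6*-/-, with 2 antibodies, and each genotype had 3 samples under IgG2b and 6 under anti-PD-L1. The study's own figure legend lists fewer anti-PD-L1 samples per genotype than the 6 used here. IgG2b is the control antibody, and either antibody was given at 0.5 mg from d3 on. The *Nr2f6*-deficient mice had been back-crossed on a C57BL/6 background, and all mice carried the same tumor line. *Nr2f6*-/- mice lack the gene in every cell of the host, not in T cells alone, and the tumor cells were not deleted for it. The study's methods give a range of weeks for the age of its tumor-injected mice, the labels give neither age nor sex, and no source used here says that each sample is 1 mouse, so p-values measure the spread between samples. After bead enrichment of CD4+ and CD8+ cells and a sort on CD3, each sample held mixed T cells. Markers of other cells were also read in these samples, as given below.

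Depth ranged from 12473391 to 18609482 reads on genes. *Nr2f6* was listed at 0 in all 9 *Nr2f6*-/- samples and between 20.2 and 201 normalized counts in *Nr2f6*+/+ samples (exact permutation test, two-sided, p = 0.0022 with anti-PD-L1; p = 0.10 with IgG2b, the smallest that 3 against 3 samples allow). Library numbers in the labels run in 2 stretches, called library set 1 (replicates 1 to 3 of every group) and set 2 (replicates 4 to 6, all of them given anti-PD-L1). Set 2 therefore has no IgG2b sample. T-cell markers (*Cd3d*, *Cd3e*, *Cd3g*, *Cd4*, *Cd8a*, *Cd8b1*) were present in every group, with summed levels between 40582 and 79184 normalized counts. The 12 macrophage and monocyte markers, among them *Csf1r*, *Lyz2* and *C1qa*, were also detected in every group. Their sum was between 15583 and 19735 in *Nr2f6*+/+ IgG2b and between 9320 and 12824 in *Nr2f6*-/- IgG2b, against 1634 to 6768 and 857 to 2611 with anti-PD-L1. All 12 of these markers had a lower mean log2 level with anti-PD-L1 in both genotypes, with a median log2 fold change of -3.26 in *Nr2f6*+/+ and -3.68 in *Nr2f6*-/-, and 1 and 2 of them passed the test. The 4 platelet markers summed to between 2300 and 2611 in *Nr2f6*+/+ IgG2b and to at most 703 in any other sample, and *Gp9* was at 0 in every group. *Itga2b* was also at 0 in both IgG2b groups, and *Ppbp* in every group but *Nr2f6*+/+ IgG2b. Over all samples, melanocyte and melanoma markers summed to between 736 and 7107. B-cell markers summed to between 901 and 4160, with *Cd79a* at 0 in every group. The part of these cells in the AP-1 values below was not tested. In such bulk samples, fewer cells of a type and less RNA per cell cannot be told apart.

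**Figure D1:**
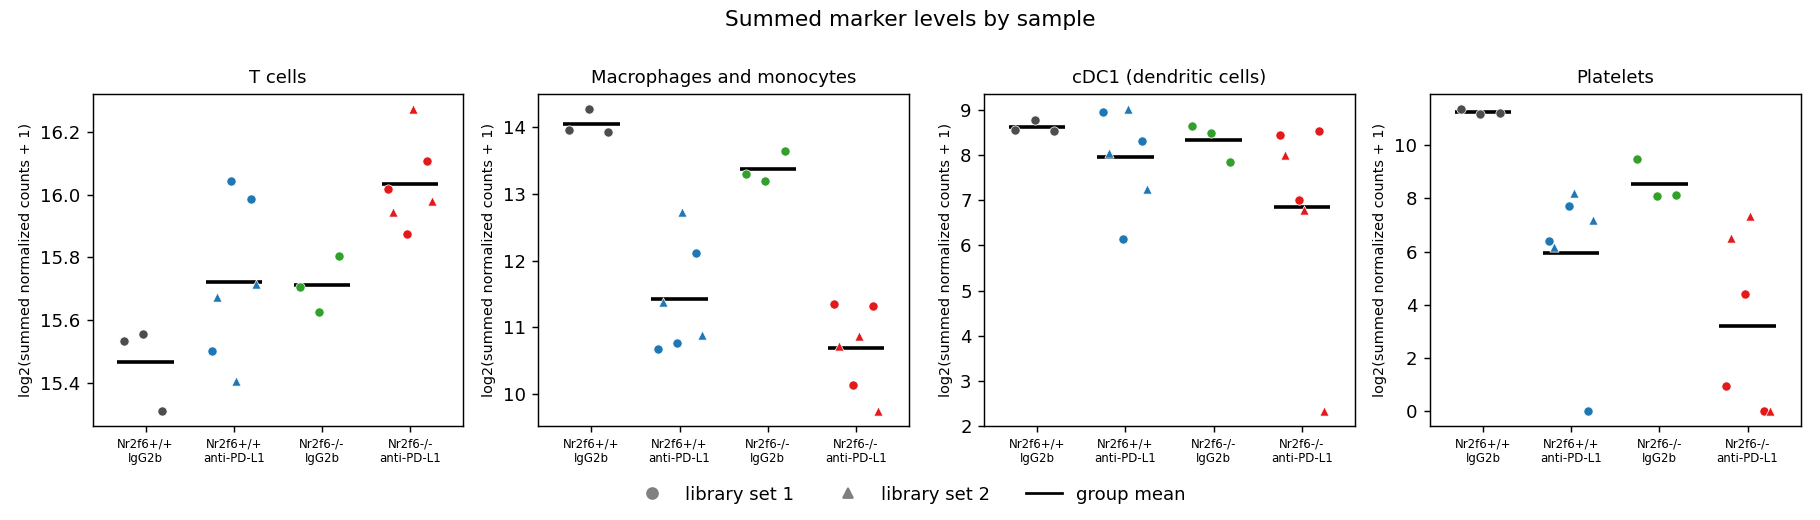
Summed marker levels, log2(summed normalized counts + 1), of 4 cell types in the 18 samples, with 1 point per sample, the group mean as a line and the library set as the point's shape. T-cell markers lie between 40582 and 79184 over all groups, and macrophage and monocyte markers lie lower in both anti-PD-L1 groups (857 to 6768) than in the IgG2b groups (9320 to 19735).

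The promoters of *Fos* and *Fosl2* are shown because these genes passed the test below, and that of *Jun* because *Fos* and *Jun* are textbook cases of genes switched on through signal-regulated sites near the start. The 3 were chosen after their values were seen. Each runs 5′ to 3′ from 250 bases before to 50 bases after the RefSeq start in GRCm38.p6, with capitals where a searched motif occurs.
Fos (chr12:85473640-85473939, plus strand): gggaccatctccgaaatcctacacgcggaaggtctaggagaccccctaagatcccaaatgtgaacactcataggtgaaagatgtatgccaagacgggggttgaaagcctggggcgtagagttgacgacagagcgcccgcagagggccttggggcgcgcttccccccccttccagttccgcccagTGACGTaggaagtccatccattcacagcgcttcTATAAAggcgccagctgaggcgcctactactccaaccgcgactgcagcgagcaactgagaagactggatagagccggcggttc
Fosl2 (chr5:32136222-32136521, plus strand): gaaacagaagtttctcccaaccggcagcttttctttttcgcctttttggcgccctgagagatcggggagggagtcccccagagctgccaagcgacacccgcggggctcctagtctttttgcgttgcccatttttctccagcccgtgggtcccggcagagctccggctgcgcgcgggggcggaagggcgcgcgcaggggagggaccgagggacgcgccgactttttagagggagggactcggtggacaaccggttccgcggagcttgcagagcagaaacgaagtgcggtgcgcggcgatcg
Jun (chr4:95052173-95052472, minus strand): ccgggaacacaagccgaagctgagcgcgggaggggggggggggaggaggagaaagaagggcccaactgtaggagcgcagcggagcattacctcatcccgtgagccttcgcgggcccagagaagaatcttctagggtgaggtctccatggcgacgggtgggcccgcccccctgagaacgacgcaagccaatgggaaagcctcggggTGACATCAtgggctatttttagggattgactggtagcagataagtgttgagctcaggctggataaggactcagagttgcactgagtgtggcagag
The motifs searched on both strands were the AP-1 site TGANTCA, the CRE TGACGTCA, its shorter core TGACGT, the *Jun*-type site TGACATCA, the nuclear receptor half-site AGGTCA, the CArG box and TATAAA. The shorter core lies within the CRE, so a match to the longer is also one to the shorter. *Jun* held TGACATCA, beginning 45 bases before its start, as did 3.62% of 32851 promoters of this length. *Fos* held TGACGT, beginning 66 bases before its start, which *Batf* and 7.51% of all promoters also held. It also held TATAAA at 33 bases before its start, as did 13.6% of all promoters anywhere in the window. *Junb* held TATAAA too, but beginning at its listed start. No member among the 8 with a promoter sequence held TGANTCA (7.81% of all promoters), TGACGTCA (1.79%), the CArG box (1.63%) or AGGTCA (16.3%) in this window. These matches are letters in a window and not measured binding.

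Of the 9 members, 8 passed the filter of a mean of at least 10 normalized counts and were tested. *Fosl1*, which encodes FRA-1, had 0 reads in all 18 samples, which allows up to 3 reads or between 2.46 and 3.64 normalized counts per sample. With anti-PD-L1 in *Nr2f6*+/+ mice, 2 members passed the test, *Fos* and *Fosl2*, both lower, beside 0.242% of all genes tested. Among the *Nr2f6*-/- samples *Fosl2* alone passed, again lower, beside 0.325% of all genes. Between genotypes 0 members passed with either antibody, beside 0.175% of all genes with anti-PD-L1 and 0% with IgG2b. Every p-value of a single member below is from limma on log2(normalized count + 1), and adjusted values are by the Benjamini-Hochberg method over 11992 genes. Lower levels with anti-PD-L1 and no overlap of samples, as given for members below, were found for 3.22% of all genes in *Nr2f6*+/+ and 3.15% in *Nr2f6*-/-.

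**Figure D2:**
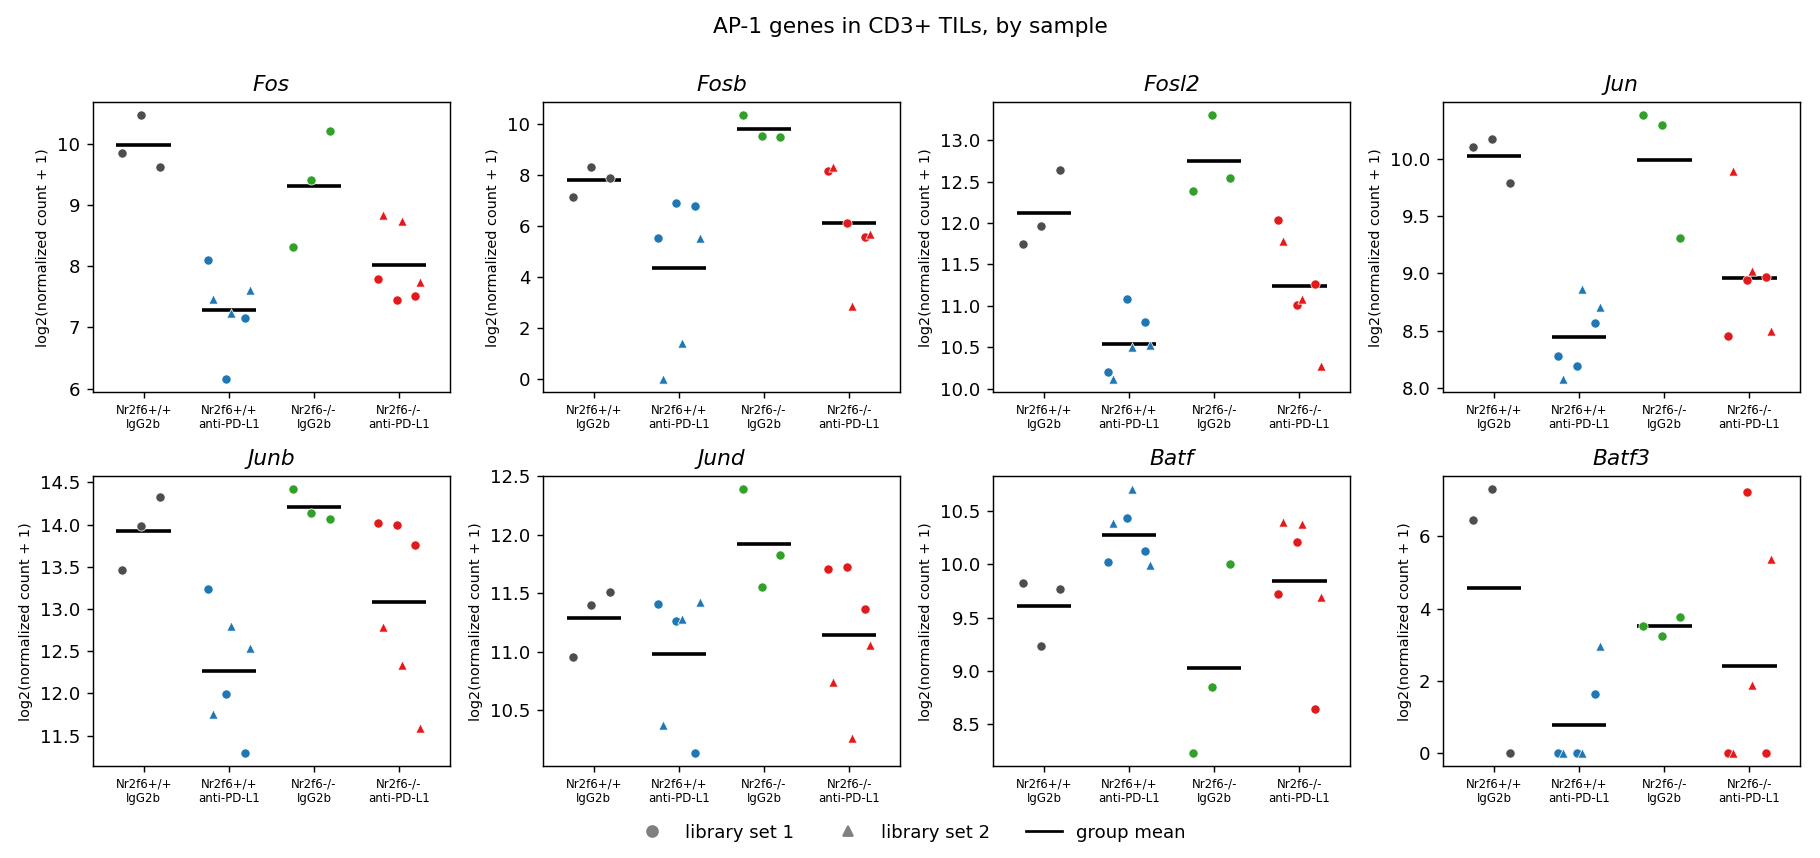
Level of the 8 tested members, log2(normalized count + 1), in the 18 samples, with 1 point per sample, the group mean as a line and the library set as the point's shape. *Fos*, *Fosb*, *Fosl2*, *Jun* and *Junb* were lower with anti-PD-L1 than with IgG2b in *Nr2f6*+/+ with no overlap of samples, as were 3.22% of all genes tested. *Junb* in *Nr2f6*-/- anti-PD-L1 splits by library set, and the share of all genes that do so was not counted.

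Among the FOS genes, *Fos* encodes c-FOS, the classical immediate-early partner of JUN (chr12:85473890-85477274, plus strand, 4 exons in its first listed transcript). It had 923, 1411 and 782 normalized counts in the 3 *Nr2f6*+/+ IgG2b samples. In the 6 *Nr2f6*+/+ anti-PD-L1 samples the lowest was 70.3, the median 162 and the highest 273, so the groups did not overlap. *Fos* was 6.46-fold lower (log2 fold change -2.69, SE 0.52, adjusted p = 0.013). *Nr2f6*-/- samples had 317, 676 and 1175 with IgG2b against a lowest of 175, a median of 217 and a highest of 458 with anti-PD-L1. These groups overlapped, and the log2 fold change was -1.29 (SE 0.52, adjusted p = 0.38). The difference of the anti-PD-L1 effect between the genotypes was 1.40 on the log2 scale (95% CI -0.10 to 2.90, adjusted p = 0.97 in limma), so the effect is not shown to differ between them. Without *Nr2f6*+/+ IgG2b replicate 1, 2 or 3 the adjusted p of *Fos* in *Nr2f6*+/+ was 0.081, 0.25 and 0.090, and with only the groups compared in the fit it was 0.061.

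*Fosl2* encodes FRA-2 (chr5:32136472-32157840, plus strand, 4 exons) and was the member with the same call in both genotypes. It had 3423, 4002 and 6387 normalized counts in *Nr2f6*+/+ IgG2b and a lowest of 1107, a median of 1459 and a highest of 2164 in *Nr2f6*+/+ anti-PD-L1. The groups did not overlap, and *Fosl2* was 2.99-fold lower (log2 fold change -1.58, SE 0.30, adjusted p = 0.012). *Nr2f6*-/- samples had 5362, 10094 and 5956 with IgG2b and a lowest of 1240, a median of 2314 and a highest of 4203 with anti-PD-L1. Again the groups did not overlap, with a 2.83-fold lower level (log2 fold change -1.50, SE 0.30, adjusted p = 0.015). The call was lost without *Nr2f6*+/+ IgG2b replicate 2 or 3 (adjusted p = 0.084 and 0.22) and, in *Nr2f6*-/-, without IgG2b replicate 2 or 3 (0.20 and 0.065). It was also lost in both genotypes with library set as a covariate (log2 fold changes -1.40 and -1.32, adjusted p = 0.061 and 0.059), within library set 1 (-1.42 and -1.31, adjusted p = 0.091 and 0.14) and with no filter on low values (adjusted p = 0.052 and 0.10). With only the groups compared in the fit, adjusted p was 0.031 in *Nr2f6*+/+ and 0.19 in *Nr2f6*-/-.

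*Fosb*, whose protein partners JUN in the same way (chr7:19302696-19310118, minus strand), had a larger SE than the other tested FOS genes. With IgG2b it had 141, 318 and 235 normalized counts in *Nr2f6*+/+ and 1289, 734 and 711 in *Nr2f6*-/-, so the genotypes did not overlap, as for 6.1% of all genes in this direction, but the difference did not pass the test (log2 fold change 1.99, SE 1.53, adjusted p = 0.99). With anti-PD-L1 it ranged from 0 to 119 with a median of 45.2 in *Nr2f6*+/+, and from 6.30 to 314 with a median of 59.4 in *Nr2f6*-/-. Each of these ranges lay below that of the same genotype with IgG2b. The log2 fold changes were -3.42 (SE 1.32, adjusted p = 0.54) and -3.67 (SE 1.32, adjusted p = 0.31), and within library set 1 -1.38 (SE 0.75, adjusted p = 0.62) and -3.17 (SE 0.75, adjusted p = 0.14). In the anti-PD-L1 samples, library set 2 minus set 1 was -2.54 (SE 1.26, adjusted p = 0.56).

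Among the JUN genes, *Jun* encodes c-JUN from a single exon (chr4:95049036-95052222, minus strand). It had 1101, 1157 and 881 normalized counts in *Nr2f6*+/+ IgG2b against a lowest of 269, a median of 344 and a highest of 464 with anti-PD-L1, with no overlap. The log2 fold change was -1.58 (SE 0.37, adjusted p = 0.060). *Nr2f6*-/- samples had 1332, 1257 and 632 with IgG2b and a lowest of 351, a median of 495 and a highest of 951 with anti-PD-L1. These groups overlapped (log2 fold change -1.03, SE 0.37, adjusted p = 0.30). DESeq2 on the recovered reads put *Jun* past the threshold in *Nr2f6*+/+ (adjusted p = 0.0030). GENCODE lists an antisense gene beside *Jun* and one beside *Jund*, and the strand setting of the counting is not given in the sources used here, so reads of either strand cannot be told apart.

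*Junb* (chr8:84976909-84978748, minus strand) encodes a JUN protein that also pairs with BATF. It had 11275, 16130 and 20462 normalized counts in *Nr2f6*+/+ IgG2b and a lowest of 2505, a median of 5013 and a highest of 9618 in *Nr2f6*+/+ anti-PD-L1, with no overlap (log2 fold change -1.65, SE 0.40, adjusted p = 0.075). The 3 *Nr2f6*-/- IgG2b samples had 21886, 18031 and 17094. The *Nr2f6*-/- anti-PD-L1 samples had 16558, 16264 and 13878 in library set 1 and 7059, 5163 and 3071 in set 2. How many of all genes split in this way was not counted. Set 1 lay within the range of *Nr2f6*+/+ IgG2b and below the 3 *Nr2f6*-/- IgG2b samples, and set 2 lay within the range of *Nr2f6*+/+ anti-PD-L1. Over all 6 samples the genotype difference with anti-PD-L1 was 0.81 on the log2 scale (SE 0.33, adjusted p = 0.39). It was 1.75 (SE 0.34, adjusted p = 0.041) within set 1 and -0.13 (SE 0.39, adjusted p = 0.95) within set 2, which was examined after the data were seen. The anti-PD-L1 effect in *Nr2f6*-/- likewise was -1.13 (SE 0.40, adjusted p = 0.29) over all samples and -0.28 (SE 0.34, adjusted p = 0.86) within set 1. In *Nr2f6*-/- anti-PD-L1 the macrophage and monocyte markers summed to between 1125 and 2611 in set 1 and between 857 and 1874 in set 2, and T-cell markers to between 60013 and 70670 and between 63007 and 79184. Over both genotypes *Junb* in set 2 minus set 1 was -0.75 (SE 0.36, adjusted p = 0.55).

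*Jund*, the JUN gene least tied to acute signals, is on the same chromosome as *Nr2f6*, 0.674 Mb away, and *Junb* is 13.6 Mb away (*Jund*, chr8:70697739-70700616, plus strand, 1 exon). The strain of the DNA around *Nr2f6* in the back-crossed mice was not tested, so the deletion and linked DNA cannot be told apart here. *Jund* had 1986, 2692 and 2910 normalized counts in *Nr2f6*+/+ IgG2b and 5360, 3006 and 3630 in *Nr2f6*-/- IgG2b. Again the genotypes did not overlap with IgG2b, as for 6.1% of all genes in this direction. The log2 fold change of 0.64 (SE 0.36, adjusted p = 0.96) did not pass the test. With anti-PD-L1 it ranged from 1122 to 2743 with a median of 2474 in *Nr2f6*+/+ and from 1228 to 3376 with a median of 2382 in *Nr2f6*-/-. The treatment effects were -0.30 (SE 0.31, adjusted p = 0.89) and -0.78 (SE 0.31, adjusted p = 0.37). In *Nr2f6*-/- anti-PD-L1, *Jund* had 3343, 3376 and 2638 in library set 1 and 1707, 1228 and 2127 in set 2, a split without overlap as for *Junb*. The share of all genes with such a split was not counted, so the split is not shown to be particular to these genes. Over both genotypes *Jund* in set 2 minus set 1 was -0.41 (SE 0.27, adjusted p = 0.67), a comparison in which limma called 0 of 11992 genes.

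**Figure D3:**
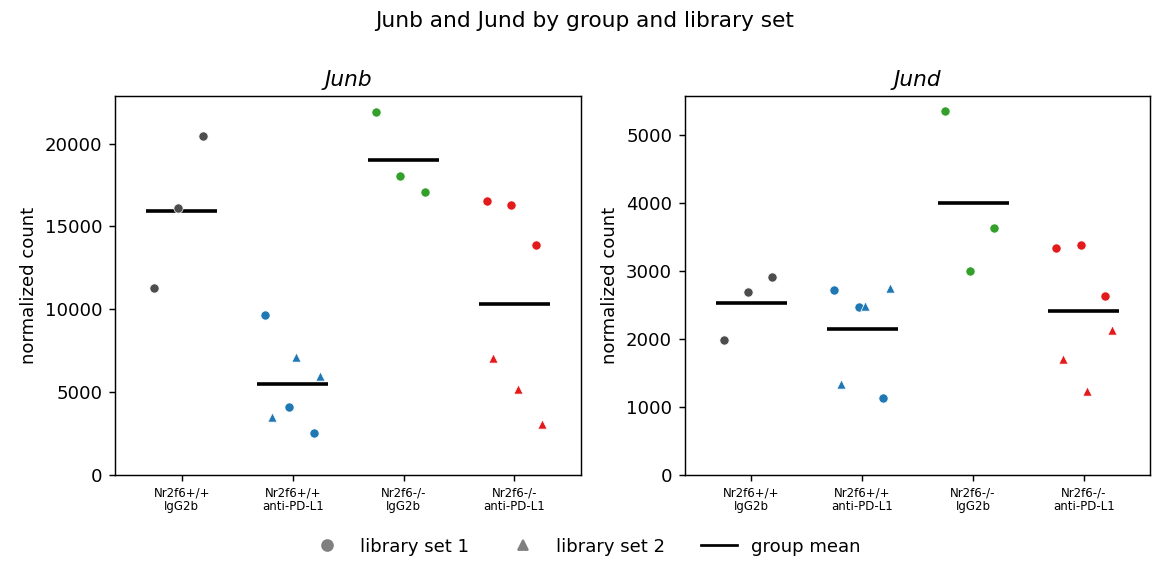
Normalized count of *Junb* and *Jund* by group, with 1 point per sample, the group mean as a line and circles for library set 1 and triangles for set 2. In *Nr2f6*-/- anti-PD-L1 the set 1 samples of *Junb* lie between 13878 and 16558 and the set 2 samples between 3071 and 7059.

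Among the BATF genes, *Batf* (chr12:85686720-85709087, plus strand, 3 exons) had 908, 602 and 871 normalized counts in *Nr2f6*+/+ IgG2b and a lowest of 1020, a median of 1226 and a highest of 1667 with anti-PD-L1. It was the one member whose anti-PD-L1 samples all lay above the IgG2b samples, as did 1.32% of all genes, and the log2 fold change of 0.67 (SE 0.37, adjusted p = 0.76) did not pass the test. *Nr2f6*-/- samples had 299, 461 and 1024 with IgG2b and a lowest of 398, a median of 1012 and a highest of 1343 with anti-PD-L1, which overlapped (log2 fold change 0.81, SE 0.37, adjusted p = 0.46). *Batf3* (chr1:191098414-191108943, plus strand), known for its role in cDC1 development, had 86.1, 156 and 0 normalized counts in *Nr2f6*+/+ IgG2b and 10.5, 8.48 and 12.5 in *Nr2f6*-/- IgG2b. With anti-PD-L1 it was at 0 in 4 of 6 *Nr2f6*+/+ samples and 3 of 6 *Nr2f6*-/- samples, and the highest were 6.86 and 148. It passed the filter through a few samples, and its direction in *Nr2f6*-/- depends on the tool. Markers of cDC1 cells summed to between 372 and 438 in *Nr2f6*+/+ IgG2b and between 69.3 and 519 with anti-PD-L1. In *Nr2f6*-/- they summed to between 231 and 400 with IgG2b and between 4.01 and 368 with anti-PD-L1, and *Clec9a* was at 0 in the *Nr2f6*-/- IgG2b samples. All 5 tested cDC1 markers had a lower mean log2 level with anti-PD-L1 in both genotypes, with a median log2 fold change of -1.78 in *Nr2f6*+/+ and -1.65 in *Nr2f6*-/-, and 0 passed the test. Their part in the *Batf3* values was not tested.

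**Figure D4:**
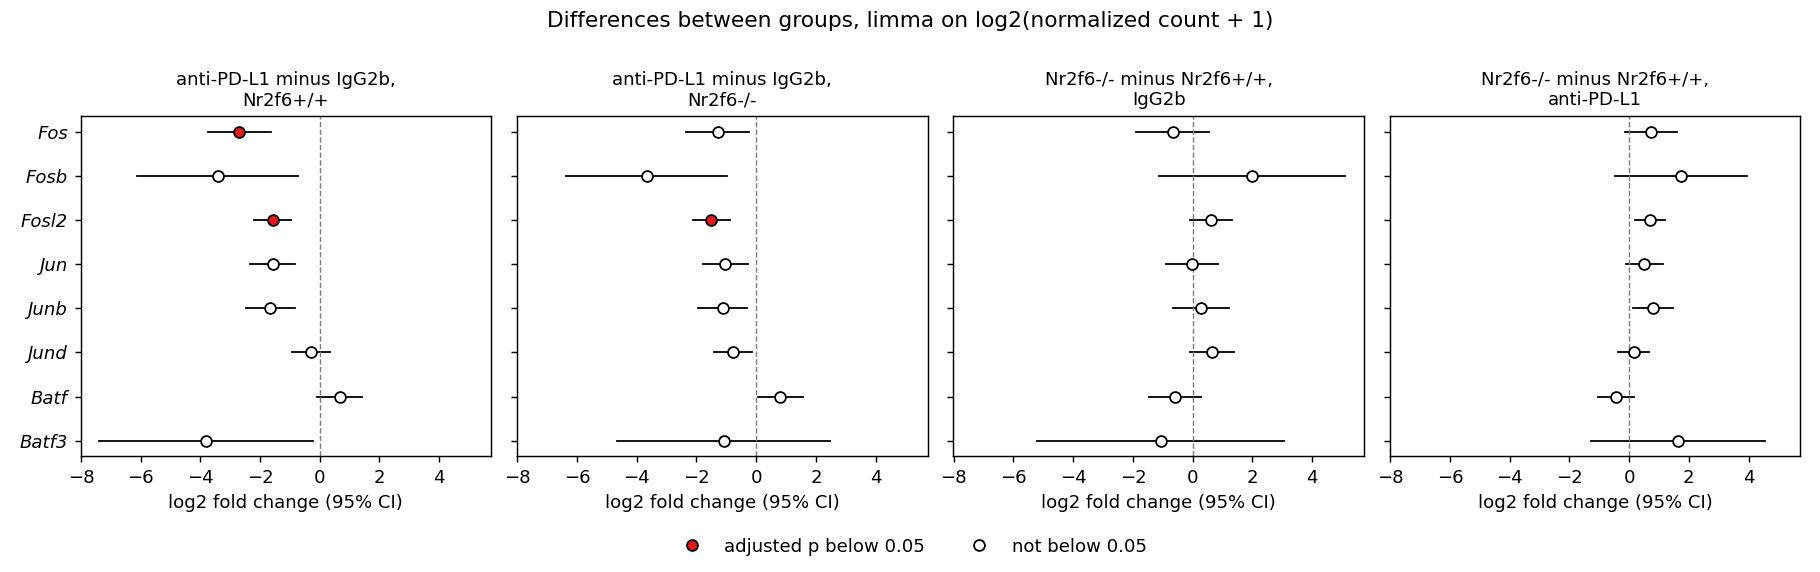
Log2 fold change of the 8 tested members with its 95% confidence interval in 4 comparisons, with filled points for an adjusted p below 0.05 (limma). With anti-PD-L1, *Fos* (-2.69) and *Fosl2* (-1.58) are filled in *Nr2f6*+/+ and *Fosl2* (-1.50) in *Nr2f6*-/-, and no member is filled between genotypes.

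Described over the 8 tested members, the median log2 fold change with anti-PD-L1 was -1.62 in *Nr2f6*+/+ and -1.11 in *Nr2f6*-/-, beside -0.10 and -0.04 over all genes tested. In *Nr2f6*+/+, 5 members (*Fos*, *Fosb*, *Fosl2*, *Jun* and *Junb*) lay below IgG2b with no overlap of samples, as did 3.22% of all genes. The count in *Nr2f6*-/- was 3 (*Fosb*, *Fosl2* and *Junb*), beside 3.15% of all genes. Both treatment comparisons rest on 3 IgG2b samples each. In library set 1 alone, which holds 3 samples of each group, *Fos* and *Junb* passed the test in *Nr2f6*+/+ (log2 fold changes -2.84 and -1.75, adjusted p = 0.049 and 0.042) and 0 members did in *Nr2f6*-/-. Over all 11992 genes tested, limma called 30 in *Nr2f6*+/+ and 8 in *Nr2f6*-/- within this set.

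Between genotypes with anti-PD-L1, 7 of the 8 tested members had a higher mean log2 level in *Nr2f6*-/- and *Batf* a lower one (-0.44, SE 0.30, adjusted p = 0.67). The 7 include *Batf3*, which lay at or near the floor of 3 reads in many samples. How many of all genes were higher was not counted, and their median log2 fold change was -0.0049. Within library set 2, *Junb* (-0.13) and *Jund* (-0.34) were lower in *Nr2f6*-/-, and *Jund* was at -0.0095 without *Nr2f6*+/+ anti-PD-L1 replicate 3. No member separated the 6 samples of one genotype from the 6 of the other, which 0.392% of all genes did in the higher direction. *Fosl2* had the smallest p of the members (log2 fold change 0.71, SE 0.24, adjusted p = 0.31), with 0.74 in library set 1 and 0.67 in set 2. *Fos* (0.73, SE 0.42, adjusted p = 0.61), *Fosb* (1.75, SE 1.08, adjusted p = 0.63, and 0.20 within set 1), *Jun* (0.52, SE 0.30, adjusted p = 0.61), *Jund* (0.16, SE 0.25, adjusted p = 0.88) and *Batf3* (1.64, SE 1.43, adjusted p = 0.75) did not pass either. Over all genes 21 passed in this comparison.

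With IgG2b, none of the members not yet given passed between genotypes. The log2 fold changes were -0.67 for *Fos* (SE 0.60, adjusted p = 0.99), 0.63 for *Fosl2* (SE 0.35, adjusted p = 0.94), -0.03 for *Jun* (SE 0.42, adjusted p = 1), 0.29 for *Junb* (SE 0.46, adjusted p = 1) and -0.58 for *Batf* (SE 0.42, adjusted p = 0.99). Over all genes limma called 0 here, with 641 at an unadjusted p under 0.05, while edgeR called 0 and DESeq2 88. *Batf3* had a log2 fold change of -1.07 (SE 2.02, adjusted p = 1).

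Combined deletion and blockade was also set against *Nr2f6*+/+ IgG2b, a comparison that shares its control samples with that of anti-PD-L1 in *Nr2f6*+/+. No member passed, beside 0.617% of all genes. *Fos* had a log2 fold change of -1.96 (SE 0.52, adjusted p = 0.082) with no overlap of samples, as for 4% of all genes in this direction. *Fosl2* (-0.87, SE 0.30, adjusted p = 0.23), *Jun* (-1.06, SE 0.37, adjusted p = 0.24) and *Junb* (-0.84, SE 0.40, adjusted p = 0.52) overlapped. No member passed the test of the difference of the anti-PD-L1 effect between genotypes, where limma called 0 genes, with 596 at an unadjusted p under 0.05, edgeR 0 and DESeq2 76.

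Genes around AP-1 were counted from lists chosen with earlier results of these data known. Of 19 other immediate-early genes, 18 were tested. In *Nr2f6*+/+ with anti-PD-L1, 3 passed the test lower and 0 higher, beside 0.242% of all genes tested. Passing or not, 16 had a lower and 2 a higher mean log2 level, and the median log2 fold change was -1.21. Among those that passed were *Egr1*, a zinc finger factor induced by MAPK signals (-1.28, adjusted p = 0.017), and *Dusp1*, a phosphatase that switches MAPKs off (-1.47, adjusted p = 0.00077). *Nr4a1*, a nuclear receptor induced by T-cell receptor signals, passed as well (-1.74, adjusted p = 0.0093). Under *Nr2f6* deletion 2 passed, both lower, *Dusp1* (-1.12, adjusted p = 0.015) and *Nr4a1* (-1.74, adjusted p = 0.010), beside 0.325% of all genes tested. Here too 16 were lower and 2 higher, with a median of -1.07. *Egr1* in *Nr2f6*-/- was 0.02 (adjusted p = 0.99). Between genotypes with anti-PD-L1, 10 listed genes were higher in *Nr2f6*-/- and 8 lower. *Egr1* was the one that passed, higher in *Nr2f6*-/- (1.08, SE 0.21, adjusted p = 0.020), beside 0.175% of all genes tested. It had between 1724 and 3748 normalized counts in *Nr2f6*+/+ and between 3468 and 6749 in *Nr2f6*-/-. The difference of its treatment effect between genotypes was 1.30 (adjusted p = 0.76).

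None of the 18 other bZIP partners, 17 upstream kinases and factors, 5 cooperating factors and 9 tested of 10 target genes passed in any of the comparisons. With anti-PD-L1 in *Nr2f6*+/+ their medians were -0.29, -0.14, 0.15 and -0.71, and in *Nr2f6*-/- -0.49, -0.01, 0.42 and -0.12. The smallest p-values between genotypes with anti-PD-L1 were those of *Nfil3* (0.69, adjusted p = 0.32) and *Atf7* (1.36, adjusted p = 0.32) among the partners, and of *Prkcq*, a kinase of T-cell receptor signaling (1.02, adjusted p = 0.22), and *Map2k2* (-0.64, adjusted p = 0.29) upstream. Among cooperating factors they were *Nfatc1* (0.78, adjusted p = 0.062) and *Nfatc2* (0.83, adjusted p = 0.39), and among targets *Il10* (1.73, adjusted p = 0.22) and *Gzmb*, the cytotoxic protease granzyme B (0.65, adjusted p = 0.22).

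After each group mean was subtracted, Pearson's r over the 18 samples was between -0.59 and 0.77 for the 28 pairs of tested members, and 0 pairs passed after adjustment (permutation within groups, 100000 resamples). The highest was *Junb* with *Jund* (r = 0.77, permutation p = 0.0019, adjusted p = 0.053). Its Spearman's rho was 0.81 (permutation p = 0.00035, adjusted p = 0.0098), and without the 2 samples farthest from the median of *Junb*, r was 0.88 (adjusted p = 0.0022). With the library set means also removed, r was 0.62 (adjusted p = 0.87). *Fosb* with *Fosl2* had r = 0.48 (permutation p = 0.045, adjusted p = 0.42) and *Fosl2* with *Batf3* r = -0.59 (permutation p = 0.039, adjusted p = 0.42).

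By Pearson's r of log2(normalized count + 1) over all 18 samples, group differences included, the genes most like each member were named. For *Fos* these were *Spi1* (0.84), *Fcer1g* (0.84) and *Cmklr1* (0.83), and for *Jun* *Cd300lb* (0.90), *Fcer1g* (0.85) and *Tnfrsf21* (0.85). *Spi1*, *Fcer1g*, *Cmklr1* and *Cd300lb* are known from myeloid cells. Their mean levels were 179, 1232, 54.6 and 17.5 normalized counts, with a lowest value of 0 for *Cmklr1* and *Cd300lb*. For *Fosl2* they were *Nr4a1* (0.89), *Tppp3* (0.88) and *Nfkbiz* (0.87), for *Fosb* *Rpl36-ps4* (0.82), *Nfkbiz* (0.81) and *Pnrc1* (0.80), and for *Junb* *RP24-315D19.10* (0.90), *Tap2* (0.89) and *Nr4a1* (0.87). *Jund* was most like *Hnrnpa0* (0.88), *Pcbp2* (0.87) and *Cd53* (0.87), *Batf* most like *Snrnp25* (0.85), *Galk1* (0.83) and *Pfdn6* (0.83), and *Batf3* most like *Spata1* (0.79), *Unc5a* (0.73) and *RP24-159A20.4* (0.69). All points share the size factors and the group design, so these values are descriptions.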

How the data were processed

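Libraries read transcript 3′ ends. The authors used Cutadapt and Trimmomatic for trimming, STAR and then Bowtie2 for alignment to mm10, and HTSeq-count for counting by gene. Versions, annotation and strand setting are not given in the sources used here. The deposited signal is a count scaled by a size factor of its sample. Dividing each column by its step gave whole reads for 100% of the values (tolerance 0.01). A 3′ tag level does not compare genes with each other, so levels were compared between samples only.

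The main test was limma (version 3.58.1, R 4.3.3) on log2(normalized count + 1) for the 11992 genes (of 37236) whose mean reached 10 normalized counts, with 4 group means over 18 samples, two-sided, Benjamini-Hochberg adjusted, threshold 0.05. The added 1 shrinks differences between low values, whereas samples at or near 0 weigh heavily in a mean log2 level. A fold change of a low gene on this scale can therefore be smaller or larger than the ratio of group means, or opposite to it. With anti-PD-L1, *Fosb* in *Nr2f6*+/+ was 10.7-fold lower on this scale, with a ratio of means of 0.231. *Batf3* in *Nr2f6*-/- had a log2 fold change of -1.09 but a ratio of means of 3.04. The library set contrast used the 12 anti-PD-L1 samples with genotype as a covariate. edgeR (4.0.16) and DESeq2 (1.42.0) were run on the recovered reads. The correlations and the exact permutation tests were computed with SciPy (1.17.1) in Python (3.11.15). limma and the correlation test were checked on simulated data. The 95% intervals are limma's and rest on the spread between samples, whereas the floor of 3 reads covers counting error only, since the values carry no molecular identifiers. No 2 columns were identical (0 of 153 pairs).

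The members and lists were chosen with earlier results of these data known. Every member and *Nr2f6* are named, the 3 genes most like each tested member, and of each list the genes past the threshold in a comparison or else the 2 with the smallest p between genotypes with anti-PD-L1. Of the 9 members, 8 had a promoter sequence in RefSeq (GRCm38.p6), and positions are from the same annotation. Other pseudocounts, filters, quantile normalization, the groups compared alone, each library set, a set covariate, a replicate block and leaving out each replicate were tried as alternatives.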

Additional observations from a re-analysis of the deposited data

Results flagged for a closer look

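In the anti-PD-L1 groups of 6 samples, 16 sets of values were searched for a sample far from the others, of which chance gives about 1 in 20 by the 95% limit of Dixon's test, a rate not worked out for values mostly at 0 such as those of *Batf3*, and 3 were found. *Jun* was 951 normalized counts in *Nr2f6*-/- anti-PD-L1 replicate 4, against 351 to 518 in the other samples. *Batf3* was 6.86 in *Nr2f6*+/+ anti-PD-L1 replicate 6, against 0 to 2.09, which is near the floor. *Batf3* was 148 in *Nr2f6*-/- anti-PD-L1 replicate 2, against 0 to 40.1.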

How the results depend on the processing

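Over 39 log2 fold changes of single members, 790 alternatives were computed, of which 752 kept direction and side of the threshold, 17 lost the call, 8 gained one and 13 turned direction. In *Nr2f6*+/+ the count of members called with anti-PD-L1 was 2, against 4 with a pseudocount of 10, 3 with DESeq2 (*Jun* too) and 1 with no filter, with only the groups compared, with the library set as a covariate and with the replicate block, and 0 to 3 on leaving out 1 replicate. Over all genes tested, 29 were called in the main fit, 60 with a pseudocount of 10 and 94 of 11736 with DESeq2. The calls were 37 of 20903 with no filter, 15 with only the groups compared, and 12 with either the set covariate or the replicate block. In *Nr2f6*-/- it was 1, against 0 with no filter, with only the groups compared, within library set 1, with the library set as a covariate and with the replicate block, and 0 to 1 on leaving out 1 replicate. Between genotypes with anti-PD-L1 it was 0, against 1 (*Junb*) within library set 1, where 34 of 11992 genes were called. Combined against *Nr2f6*+/+ IgG2b it was 0, against 1 (*Fos*) with the library set as a covariate (88 of 11992 genes called) and with DESeq2 (177 of 11736). The count of member pairs correlated was 0, against 1 without the 2 samples farthest from the median. The *Nr2f6* difference with anti-PD-L1 was -101 within library set 1 (exact permutation p = 0.10, the smallest that 3 against 3 allow).

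Directions that turned were *Junb* (-0.13) and *Jund* (-0.34) between genotypes with anti-PD-L1 within library set 2, *Jun* with IgG2b in edgeR (0.040) and DESeq2 (0.037), *Batf3* with anti-PD-L1 in *Nr2f6*-/- with a pseudocount of 10 (0.080), edgeR (1.61) and DESeq2 (1.61), and *Junb* combined against *Nr2f6*+/+ IgG2b within set 1 (0.0021). On leaving out 1 replicate, *Jund* between genotypes with anti-PD-L1 was between -0.0095 and 0.34, *Jun* with IgG2b between -0.22 and 0.32 and *Batf3* with IgG2b between -3.37 and 0.28. The cause was not tested.

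Over all genes, with anti-PD-L1 in *Nr2f6*+/+, limma called 0 higher and 29 lower, edgeR 0 and 19 and DESeq2 36 and 58, and the median log2 fold change of all genes was -0.10 in limma and 0.04 in edgeR. DESeq2 called 230 genes in *Nr2f6*-/- against 39 in limma, 184 against 21 between genotypes with anti-PD-L1, and 177 against 74 (41 in edgeR) for combined against *Nr2f6*+/+ IgG2b.

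Replicate numbers gave no sign of pairing, since the deviations of same-numbered samples from their group means correlated between -0.03 and 0.04 over 21 pairs. With the replicate block, the adjusted p of *Fosl2* with anti-PD-L1 was 0.088 in *Nr2f6*+/+ and 0.095 in *Nr2f6*-/-, and limma called 12 genes in place of 29 with anti-PD-L1 in *Nr2f6*+/+. No block was run for the library set contrast, where the numbers lie within the sets. The IgG2b groups have 3 samples each. *Fosl1* lies below the floor of 3 reads in all samples. *Batf3* lies at or near this floor in many samples but reached 171 reads in *Nr2f6*-/- anti-PD-L1 replicate 2.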
